A study of Mus musculus with 6 samples.

Results

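Genes that carry dividing cells through DNA replication and mitosis were examined in mouse oviducts by Wt1 genotype. The set was a fixed list of 49 proliferation genes, chosen by name, though with earlier results of these data known. A gene counted as measured when at least 1 probe set, the group of probes that reports a transcript on the array, named that gene alone in the platform annotation. On that rule 48 of the 49 genes were measured, by 114 probe sets, among 18193 genes in all. No probe set in the annotation used here named Ccnb1, the major mitotic cyclin B, and it is not analysed. For each gene the values are those of its brightest probe set, and the mean over all its probe sets, which had the opposite sign in 14 of the 48, is given beside them in those cases. The listed genes fell into 16 that act in S phase, when DNA is copied, and 32 measured ones called mitotic. These act in mitosis or, like Plk4, on centrioles.

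There were 3 oviduct samples from Wt1 ko/+ females, called heterozygous here, and 3 from Wt1 +/+ females, called wild type. All came from MF1, an outbred stock, after mating to wild-type males, at embryonic day 2.5, when cleaving embryos are still within the oviduct. The labels give the mutant allele only as ko, and they do not state whether embryos were flushed out or whether each sample came from a single female. P-values therefore cover only the variation among the 6 samples, part of which may be technical.

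Cell division runs on waves of transcription. The E2F factors switch on replication genes and the E-type cyclins as a cell leaves G1, and B-Myb (Mybl2) and Foxm1, acting with the MuvB complex, then raise the genes of mitosis. In resting cells the DREAM complex holds many of the same promoters silent through an element called the CHR, the cell cycle genes homology region. The adult oviduct epithelium divides slowly, and its ciliated cells reuse part of the centriole and mitotic machinery to build basal bodies without dividing.

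Both sets of control elements can be read in the promoters of the listed genes. RefSeq promoter windows of the mouse build GRCm38.p6 were found for 39 of the 48 measured genes, 41 windows in all, and the 250 bases before the start were searched on both strands. The CHR was searched as TTTGAA, as the variant TTCGAA and as the variant TTTAAA. Any of these stood in 15 of 27 windows of mitotic genes (55.6%) and in 5 of 14 windows of S phase genes (35.7%). They stood in 21.1% of the 18109 windows of all genes tested on the arrays. CCAAT, the NF-Y element often found near a CHR, stood in 74.1% of mitotic and 71.4% of S phase windows, against 34.7% of all windows. The E2F-like letters TTTGGCGC, TTTCCCGC or TTTCGCGC were found in 1 mitotic window (3.70%) and 4 S phase windows (28.6%), against 2.29% of all. The motifs differ in letters, and a base can belong to more than 1 match. A match describes these letters and does not show binding.

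The 100 bases before the start are printed for genes on which the comparison below turns, with matches to any of these motifs in capitals. Cdk1, Cdc20 and Cdca5 were chosen for a CHR match close to the start, and all are also among the genes lower without overlap. Cdca8 was chosen as the gene of smallest p, and Mcm3 as the one listed gene higher in heterozygous oviducts without overlap. CHR letters were also close to the start in genes whose genotypes overlapped. They began 15 bases before it in Ccne1, 19 in Kif11 and 20 in E2f8, so the printed stretches do not link a CHR to a change.
Cdk1 (chr10:69352913-69353012, minus strand): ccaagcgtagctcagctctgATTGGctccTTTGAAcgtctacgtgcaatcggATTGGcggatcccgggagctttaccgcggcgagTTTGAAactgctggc
Cdc20 (chr4:118437344-118437443, minus strand): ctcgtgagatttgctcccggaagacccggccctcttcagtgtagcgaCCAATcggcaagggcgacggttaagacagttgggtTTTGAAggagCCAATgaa
Cdca5 (chr19:6084997-6085096, plus strand): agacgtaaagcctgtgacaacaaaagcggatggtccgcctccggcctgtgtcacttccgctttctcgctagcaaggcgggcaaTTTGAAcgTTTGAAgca
Cdca8 (chr4:124936918-124937017, minus strand): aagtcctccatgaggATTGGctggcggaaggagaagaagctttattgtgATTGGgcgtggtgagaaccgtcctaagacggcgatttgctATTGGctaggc
Mcm3 (chr1:20820313-20820412, minus strand): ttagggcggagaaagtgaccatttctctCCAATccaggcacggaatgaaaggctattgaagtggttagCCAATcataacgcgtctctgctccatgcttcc
In Cdk1 the letters TTTGAA began 71 and 15 bases before the start, and CCAAT, read here as ATTGG, began 80 and 48 bases before it. In Cdc20 TTTGAA began 18 bases before the start, and in Cdca5 it occurred as a pair, beginning 17 and 9 bases before it. The Cdca8 stretch held CCAAT on the opposite strand at 3 places and none of the CHR letters, and the Mcm3 stretch held CCAAT at 2 places.

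The arrays and tissue set the frame for these values. Intensities are on a log2 scale after quantile normalization, which gives every array the same distribution, and the median of all probe sets was 7.28. All 11 markers of the secretory oviduct epithelium were above that median, and Ovgp1, the oviductal glycoprotein, averaged 14.33 in heterozygous and 14.27 in wild-type samples. Wt1 itself was 11.12, 11.27 and 11.79 in heterozygous replicates 1, 2 and 3, against 12.17, 12.06 and 11.67 in wild-type replicates 1, 2 and 3, so the groups overlapped (log2 change -0.57, limma adjusted p = 0.771). The labels do not place this probe set relative to the deletion, so it is a weak check of genotype. The 3' to 5' intensity ratio of Actb, a gauge of RNA integrity, was 1.67 to 2.49 in 5 arrays and 5.90 in wild-type replicate 3. The wild-type replicate 3 array also had the highest value of the 6 in 29.2% of all genes and in 26 of the 48 listed genes (54.2%).

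At their brightest probe sets, most cell cycle genes were slightly lower in heterozygous oviducts. Of the 48 measured genes 38 were lower and 10 were higher. Their median log2 change, heterozygous minus wild type, was -0.19. Over all genes 55.0% were lower and the median was -0.027. Mitotic genes were lower in 27 of 32 cases with a median of -0.20, and S phase genes in 11 of 16 with a median of -0.17. The difference was smaller by the mean of each gene's probe sets. By that measure 32 of the 48 were lower with a median of -0.078, against 51.7% and -0.0096 over all genes. In bulk tissue, fewer dividing cells, less RNA per dividing cell and a changed share of other cells cannot be told apart. The cause was not tested.

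No single listed gene passed the test. The limma fit over all 18193 genes, with Benjamini-Hochberg adjustment, called 0 of the 48 at an adjusted p under 0.05, against a background of 0.0165%, and the smallest adjusted p was 0.551. At an unadjusted limma p under 0.05 there were 6 listed genes lower (12.5%) and 0 higher, where 3.77% of all genes were lower, 2.67% were higher and 6.44% differed in either direction. Over probe sets 0 of the 114 passed, with a smallest adjusted p of 0.830 and a background of 0.00666%. Of these 114, 11 were lower without overlap between the genotypes and 5 were higher, against 5.87% and 4.67% of all probe sets. The 11 lower ones were all the brightest of their genes, and no other probe set of the list was lower without overlap. Among the 5 higher ones only that of Mcm3 was the brightest of its gene, the others being of E2f8, Cdc20, Aurkb and Bub1b. With 3 samples against 3 the exact two-sided permutation test cannot give a p below 0.1.

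**Figure D1:**
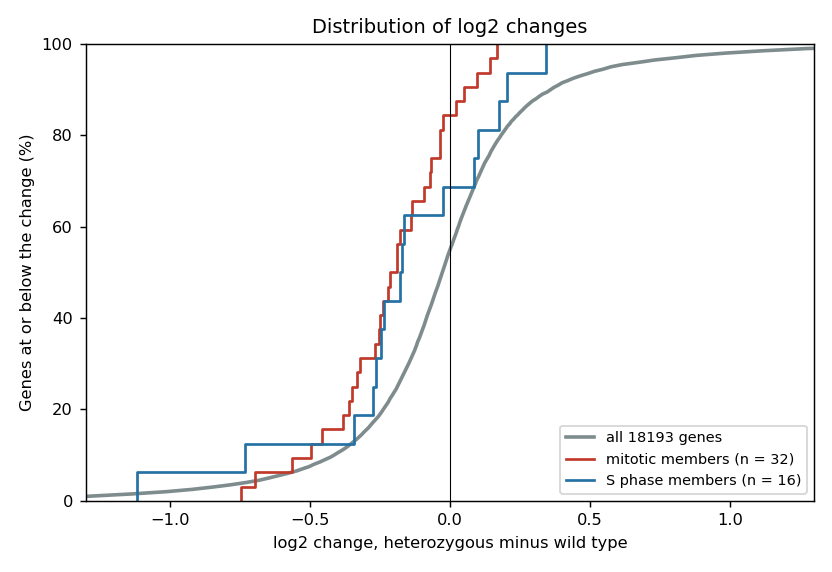
Cumulative share of genes (vertical axis, percent) against the log2 change, heterozygous minus wild type (horizontal axis), for 32 mitotic genes, 16 S phase genes and all 18193 genes. Both listed groups lie left of all genes around their medians of -0.20 and -0.17, and 5 genes of each group lie above 0.

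The shift could also be followed array by array. The list score of an array, the median over the 48 genes of the log2 level minus each gene's own mean, was -0.13, -0.086 and -0.014 in heterozygous replicates 1, 2 and 3, against 0.10, 0.051 and 0.28 in wild-type replicates 1, 2 and 3. The heterozygous arrays were all below the wild-type arrays, and wild-type replicate 3 stood well above the other two. For the mitotic genes alone the scores were -0.16, -0.086 and -0.082 in heterozygous and 0.075, 0.064 and 0.29 in wild-type arrays. Those of the S phase genes overlapped, at -0.078, -0.070 and 0.084 in heterozygous and 0.17, -0.049 and 0.16 in wild-type arrays. Without wild-type replicate 3 the count was 36 of 48 lower with a median of -0.11, while 51.3% of all genes were lower with a median of -0.0069.

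Values within classes of the Actb ratio are given as a description, since each class has a single array of 1 genotype and the higher class spans ratios of 2.40 to 5.90. Among the 3 arrays of lower Actb ratio, heterozygous replicates 2 and 3 against wild-type replicate 1, 31 of 48 genes were lower with a median of -0.19, and the median of all genes was 0.0056. Among the 3 of higher ratio, heterozygous replicate 1 against wild-type replicates 2 and 3, 40 were lower with a median of -0.34, and the median of all genes was -0.017. With the Actb ratio as a covariate 35 of 48 were lower and the median was -0.13.

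**Figure D2:**
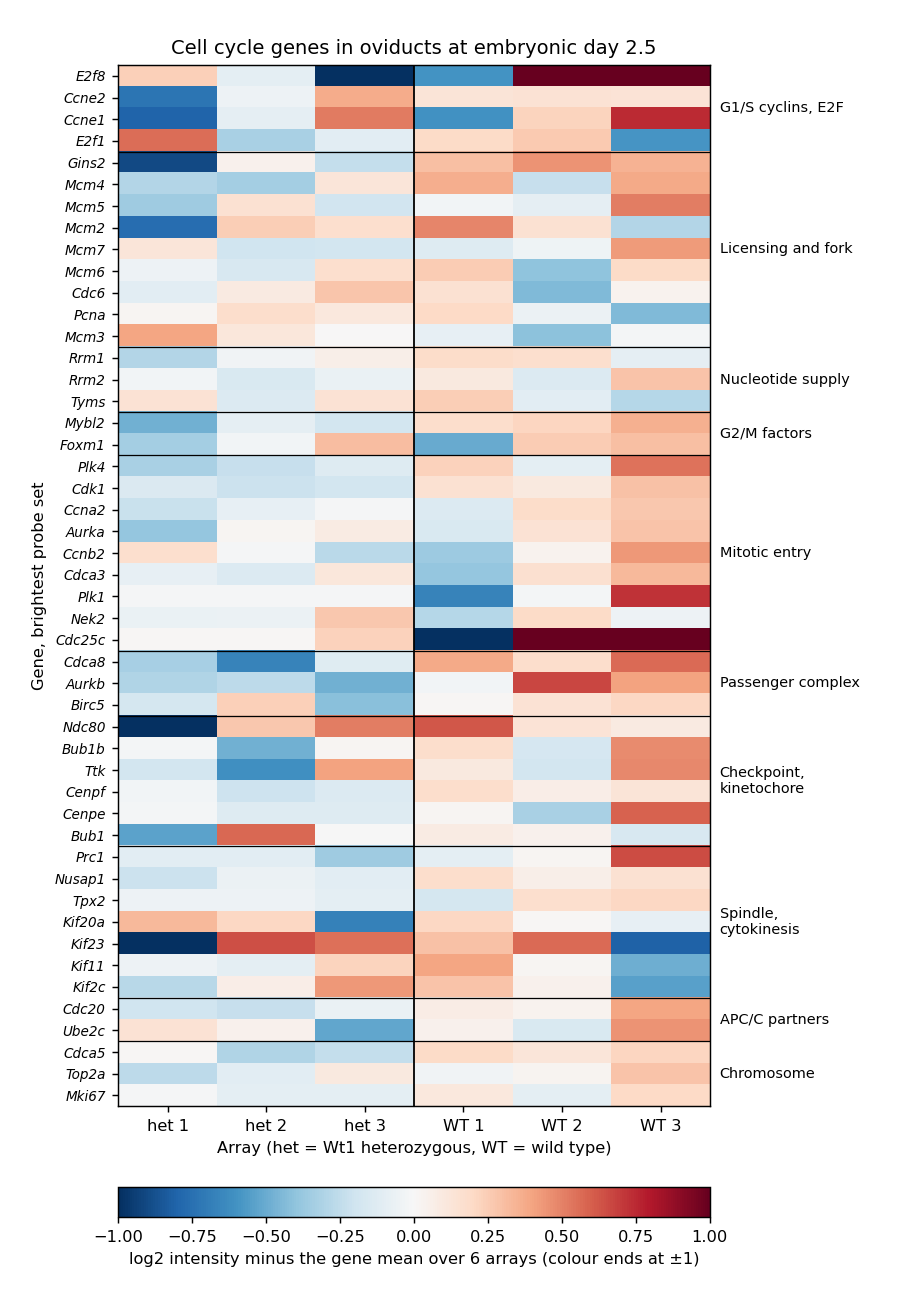
Level of each of the 48 genes (rows, grouped by role) in each array (columns, heterozygous left of wild type) as log2 intensity minus the gene's mean over 6 arrays. Blue is below and red above the gene's mean. The wild-type replicate 3 column is the highest of the 6 for 26 genes.

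Genes that license and copy DNA were mixed. The minichromosome maintenance proteins Mcm2 to Mcm7 form the replicative helicase, and 5 of the 6 were lower, with changes between -0.34 for Mcm4 and -0.024 for Mcm6. All of those 5 overlapped between the genotypes. By the mean of probe sets 3 of the 6 were lower, since Mcm6 was then 0.48, Mcm7 0.051 and Mcm3 0.27. Over the 9 genes of licensing and fork 6 were lower with a median of -0.17, and by the mean of probe sets 4 were lower with a median of 0.051. Mcm3 went the other way, at 8.62, 8.34 and 8.23 in heterozygous and 8.14, 7.81 and 8.20 in wild-type replicates 1, 2 and 3. The heterozygous arrays were all above the wild-type ones, though heterozygous replicate 3 and wild-type replicate 3 differed by little (log2 change 0.34, standard error 0.17, limma adjusted p = 0.827). The brightest Mcm3 probe set is of a kind that may cross-hybridize, and without such probe sets the change was -0.092. The other Mcm3 probe sets gave 0.05, -0.09, -0.31 and 1.36, all with overlap.

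Gins2, a subunit of the GINS complex that activates the helicase, was the S phase gene of smallest p. Its values were 8.01, 8.96 and 8.68 in heterozygous replicates 1, 2 and 3, against 9.21, 9.36 and 9.26 in wild-type replicates 1, 2 and 3. The groups did not overlap, and heterozygous replicate 1 was far the lowest. Means were 8.55 ± 0.49 in heterozygous and 9.28 ± 0.08 in wild-type samples (SD, n = 3 each), a change of -0.73 with a standard error of 0.26 (limma adjusted p = 0.698, exact permutation p = 0.1). Without heterozygous replicate 1 the Gins2 change was -0.46. Its other probe set gave -0.57, with overlap.

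Pcna, the sliding clamp of the replication fork, was bright and not lower, at 11.33, 11.49 and 11.42 in heterozygous replicates 1, 2 and 3, against 11.51, 11.26 and 10.87 in wild-type replicates 1, 2 and 3. The change was 0.20 with a standard error of 0.19, the groups overlapped, and wild-type replicate 3 was the lowest array. Without wild-type replicate 3 the Pcna change was 0.031, and without wild-type replicate 1 it was 0.35. Mcm7, the brightest helicase probe set, had 11.52, 11.20 and 11.22 in heterozygous and 11.27, 11.36 and 11.83 in wild-type replicates 1, 2 and 3, a change of -0.17 with a standard error of 0.20 (limma adjusted p = 0.928) and overlap. Without wild-type replicate 3 the Mcm7 change was -0.0017. Cdc6, which loads the helicase at origins, was dim, with a change of 0.17.

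The enzymes of deoxynucleotide supply had small differences at their brightest probe sets. Ribonucleotide reductase makes deoxynucleotides, and its large subunit Rrm1 stood at 8.52, 8.78 and 8.87 in heterozygous against 8.99, 8.99 and 8.73 in wild-type replicates 1, 2 and 3, a change of -0.18 with overlap. The other Rrm1 probe sets gave 0.37 and 0.063, so the mean was 0.085, and without heterozygous replicate 1 the brightest gave -0.076. Its small subunit Rrm2 gave -0.16, with -0.0053 and 0.60 at the others and a mean of 0.15. Tyms, thymidylate synthase, gave 0.10 at a dim brightest probe set, while its 3 other probe sets, dimmer still, gave -0.90, -1.40 and -0.65, for a mean of -0.71. All of these overlapped. Of these 3 genes 1 was lower and 2 were higher by the mean of probe sets.

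The G1/S cyclins and E2F factors were dim. For Ccne1, Ccne2, E2f1 and E2f8 both group means were under 7.28, the array-wide median. E2f1, an activator of replication genes, was 7.34, 6.46 and 6.68 in heterozygous and 6.98, 7.05 and 6.20 in wild-type replicates 1, 2 and 3, a change of 0.087 with a standard error of 0.33. The groups overlapped, and without wild-type replicate 3 the E2f1 change was -0.19. The mean of its probe sets was -0.067. The E2F repressor E2f8 gave -1.11 with a standard error of 0.71, the lowest value of the list. Its groups overlapped, and its other probe set gave 0.20 without overlap. The E cyclins, which drive Cdk2 at the start of S phase, gave -0.24 and -0.28 for Ccne1 and Ccne2, with overlap.

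Of the factors that switch on mitotic genes, Mybl2 did not overlap between the genotypes and Foxm1 did. Mybl2 was 6.30, 6.69 and 6.59 in heterozygous replicates 1, 2 and 3, against 6.95, 6.99 and 7.13 in wild-type replicates 1, 2 and 3. Every heterozygous array was below every wild-type one, and all were dim (change -0.50, standard error 0.15, limma adjusted p = 0.637). Its other probe set gave -0.11, with overlap. Foxm1, a forkhead factor, was 8.85, 9.17 and 9.51 in heterozygous and 8.69, 9.45 and 9.50 in wild-type replicates 1, 2 and 3, a change of -0.035 with a standard error of 0.28. The 3 dimmer Foxm1 probe sets gave -0.63, -1.11 and -0.34, with overlap, and their mean with the brightest, -0.53, was without overlap.

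Plk4, a centriole kinase, was grouped here with the genes of mitotic entry, and in that group Cdk1 and Plk4 did not overlap. Cdk1, the kinase that starts mitosis, was 8.15, 8.08 and 8.11 in heterozygous replicates 1, 2 and 3, against 8.44, 8.39 and 8.59 in wild-type replicates 1, 2 and 3. Both groups were tight, at 8.11 ± 0.04 in heterozygous and 8.47 ± 0.10 in wild-type samples (SD, n = 3 each), 1.28-fold lower. The change was -0.36 with a standard error of 0.12 (limma p = 0.0207, adjusted p = 0.674, exact permutation p = 0.1). Cdk1 had a single probe set and ranged from -0.40 to -0.30 over the alternatives.

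Plk4, the kinase that starts centriole duplication, was 8.34, 8.43 and 8.53 in heterozygous replicates 1, 2 and 3, against 8.90, 8.57 and 9.21 in wild-type replicates 1, 2 and 3. The highest heterozygous and the lowest wild-type array were close, and on the deposited scaling they overlapped. The change was -0.46 with a standard error of 0.19 (limma adjusted p = 0.787), with -0.31 and -0.94 at the other probe sets. Without wild-type replicate 3 the Plk4 change was -0.30, and with array weights it was -0.27. The cyclins Ccna2 and Ccnb2 gave -0.21 and -0.071, with overlap. Aurka, which matures centrosomes, and Plk1, which acts through mitosis, gave -0.19 and -0.025, with overlap. The other Aurka probe set gave 1.02, also with overlap, and the mean of both was 0.41. Nek2, which splits centrosomes, was 9.91, 9.92 and 10.25 in heterozygous and 9.69, 10.17 and 9.92 in wild-type replicates 1, 2 and 3, a change of 0.098. Cdc25c, a phosphatase that activates Cdk1, was too dim to place, at 0.17 with a standard error of 1.00.

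The chromosomal passenger complex, which corrects faulty kinetochore attachments and guides cytokinesis, had the lowest median of the role groups by brightest probe sets, -0.70 over Cdca8, Aurkb and Birc5, which is the value of Aurkb. By the mean of probe sets its median was -0.24, and that of Mybl2 and Foxm1 was lower, at -0.42. Cdca8 encodes borealin, the subunit that ties the complex to the centromere. It was 7.72, 7.38 and 7.93 in heterozygous replicates 1, 2 and 3, against 8.43, 8.22 and 8.61 in wild-type replicates 1, 2 and 3. The groups did not overlap, with means of 7.67 ± 0.28 in heterozygous and 8.42 ± 0.19 in wild-type samples (SD, n = 3 each), 1.68-fold lower. The change was -0.75 with a standard error of 0.19 (limma p = 0.00802, adjusted p = 0.551, exact permutation p = 0.1), and the other probe sets gave -0.15 and -0.54, with overlap.

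Aurkb, the kinase of the complex, had probe sets that disagreed. The brightest was 6.25, 6.29 and 6.07 in heterozygous replicates 1, 2 and 3, against 6.52, 7.22 and 6.95 in wild-type replicates 1, 2 and 3, a change of -0.70 with a standard error of 0.20 (limma adjusted p = 0.622) and no overlap. The other probe set was dimmer and gave 1.18, also with no overlap, so the mean of both was 0.24. Birc5, survivin, gave -0.24 with overlap. Incenp, the scaffold of the complex and not a listed gene, gave -0.25 with overlap.

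At the kinetochore and the spindle checkpoint, 5 of 6 genes were lower and Cenpf, a kinetochore protein, did not overlap. Cenpf was 7.92, 7.73 and 7.81 in heterozygous replicates 1, 2 and 3, against 8.12, 8.01 and 8.07 in wild-type replicates 1, 2 and 3. All 3 of its probe sets were lower, the others at -0.08 and -0.44 with overlap (change -0.25, standard error 0.11, limma adjusted p = 0.810). The checkpoint kinases Bub1, Bub1b and Ttk, and the kinetochore genes Ndc80 and Cenpe, were dim in both genotypes, with changes from -0.56 for Ndc80 to 0.022 for Bub1 and overlap in each. The other Bub1b probe sets gave 1.49, where the genotypes did not overlap, and -0.68, where they did. By the mean of probe sets Bub1b was 0.16, Cenpe 0.10 and Bub1 -0.015, and 4 of the 6 genes were lower.

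Of 7 spindle and cytokinesis genes 5 were lower, and Nusap1 and Prc1 did not overlap. Nusap1, which bundles spindle microtubules, was 7.04, 7.20 and 7.16 in heterozygous replicates 1, 2 and 3, against 7.43, 7.32 and 7.41 in wild-type replicates 1, 2 and 3 (change -0.25, standard error 0.11, limma adjusted p = 0.809). Its other probe set gave 0.75, with overlap, and the mean of both was 0.25. Prc1, which holds the central spindle together, was 7.63, 7.63 and 7.38 in heterozygous replicates 1, 2 and 3, against 7.64, 7.75 and 8.39 in wild-type replicates 1, 2 and 3. Wild-type replicate 3 alone was far above the rest: without it the Prc1 change was -0.15, against -0.38 with it. Without cross-hybridizing probe sets it was -0.12, and on the deposited scaling the groups overlapped.

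Tpx2, which activates Aurora A on the spindle, was 8.30, 8.30 and 8.25 in heterozygous against 8.18, 8.52 and 8.56 in wild-type replicates 1, 2 and 3. All 4 of its probe sets were lower, with changes between -0.40 and -0.14, each with overlap. At the brightest, without wild-type replicate 3 the Tpx2 change was -0.063, without wild-type replicate 2 it was -0.087 and without wild-type replicate 1 it was -0.26. Kif11, the motor that pushes the poles apart, gave 0.049, and Kif2c, which depolymerizes microtubules, gave 0.14. Kif20a and Kif23, motors of the midzone, gave -0.091 and -0.035. All 4 motors overlapped between the genotypes. The mean of probe sets was -0.039 for Kif11 and 0.36 for Kif23.

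The partners of the anaphase-promoting complex, the ubiquitin ligase that ends mitosis, were both lower. Its activator Cdc20 was 9.11, 9.07 and 9.24 in heterozygous replicates 1, 2 and 3, against 9.38, 9.34 and 9.70 in wild-type replicates 1, 2 and 3, with no overlap (change -0.33, standard error 0.15, limma adjusted p = 0.805). A dimmer Cdc20 probe set gave -0.26 with overlap, and a very dim one gave 0.34 without overlap, so the mean over all 3 was -0.085. Without wild-type replicate 3 the Cdc20 change was -0.22. Ube2c, the enzyme that supplies ubiquitin to this ligase, gave -0.22 with overlap.

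Chromosome genes were lower by small amounts. Cdca5, sororin, which guards sister chromatid cohesion, was 6.81, 6.50 and 6.56 in heterozygous replicates 1, 2 and 3, against 6.99, 6.92 and 7.01 in wild-type replicates 1, 2 and 3, with no overlap (change -0.35, standard error 0.13, limma adjusted p = 0.745). Its other probe set gave -0.066 with overlap. Mki67, the Ki-67 antigen used to mark dividing cells, was 7.42, 7.33 and 7.33 in heterozygous and 7.53, 7.33 and 7.63 in wild-type replicates 1, 2 and 3, a change of -0.14 with a standard error of 0.13 and overlap. Leaving out wild-type replicate 3 gave -0.076 for Mki67, and leaving out wild-type replicate 2 gave -0.22. Top2a, the topoisomerase that untangles sister chromatids, was 8.50, 8.65 and 8.86 in heterozygous and 8.72, 8.78 and 9.04 in wild-type replicates 1, 2 and 3. Its change was -0.18 with overlap, and its 2 dimmer probe sets gave 0.026 and 0.039, for a mean of -0.038. Leaving out wild-type replicate 3 gave -0.082 at the brightest Top2a probe set. The same omission of heterozygous replicate 1 gave -0.094 and that of heterozygous replicate 3 gave -0.28.

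**Figure D3:**
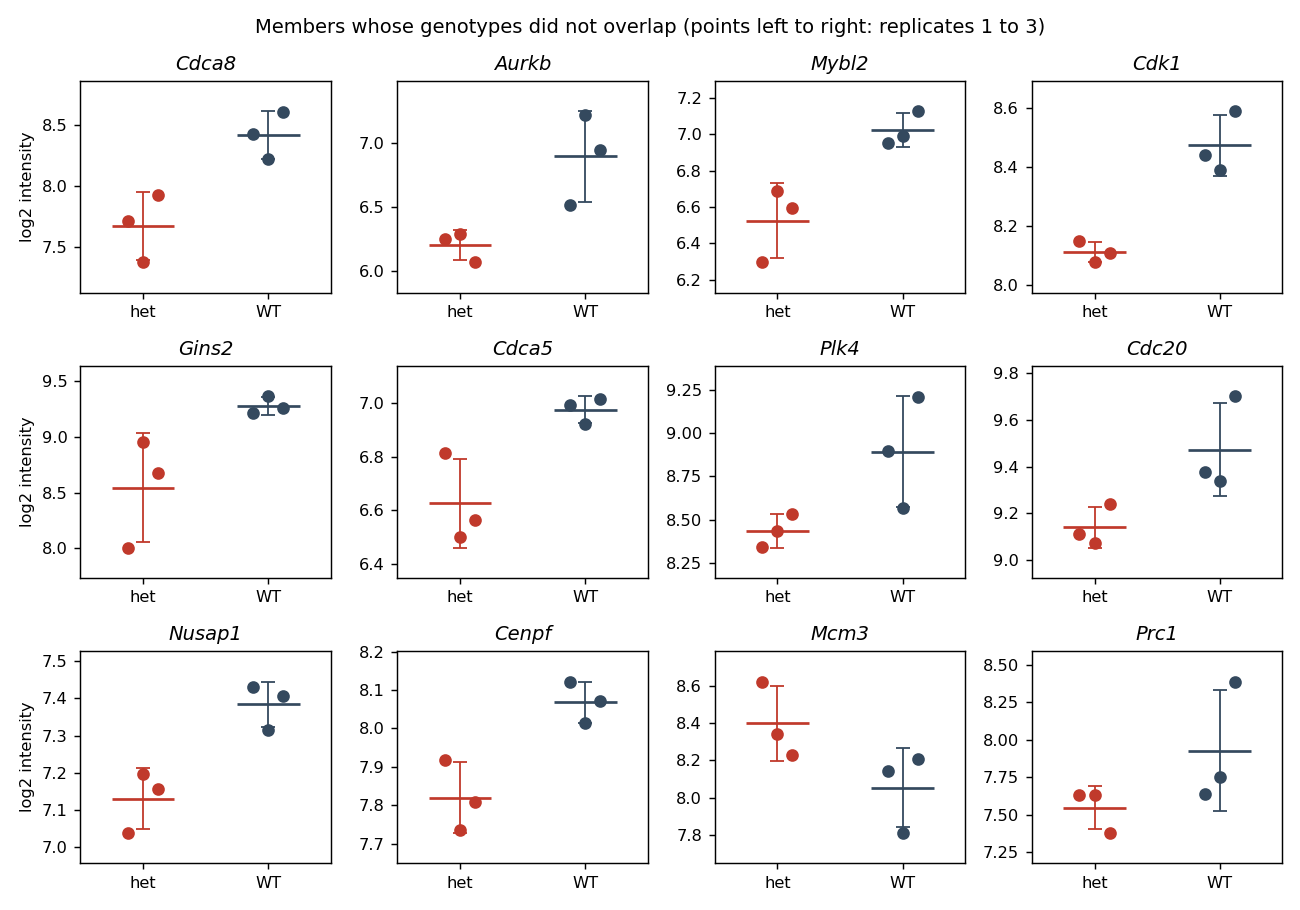
Log2 intensity (vertical axes, scaled to each gene) of the 12 genes whose genotypes did not overlap, in heterozygous (red, left) and wild-type (dark, right) arrays. Points are replicates, bars are means and whiskers are 1 SD over 3 arrays. In 11 genes heterozygous arrays are lower, and in Mcm3 they are higher.

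Counted together, 11 of the 48 genes (22.9%) were lower in every heterozygous array than in every wild-type one, where 6.77% of all genes were, and 1 (2.08%) was higher, where 5.0% of all genes were. Of the 11, 10 were from the mitotic group, with Plk4 counted there, and 1, Gins2, acts in S phase. On the deposited scaling 9 were lower without overlap (18.8%, against 6.17% of all genes), Plk4 and Prc1 being the exceptions. Without wild-type replicate 3 the count was 12 (25%, against 10.1% of all genes). With the mean of each gene's probe sets it was 6 (12.5%, against 6.18% of all genes), namely Cdca8, Cdk1, Foxm1, Gins2, Mybl2 and Prc1. Among the 11, the brightest probe sets of Cdca8, Gins2, Plk4, Aurkb, Cdc20 and Prc1 were of the kind that may cross-hybridize. Without such probe sets Cdca8, Gins2, Plk4, Cdc20 and Prc1 gave -0.54, -0.57, -0.31, -0.26 and -0.12, each with overlap. Aurkb had no probe set left.

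Probe sets of the same gene often differed. Of the 37 genes with several probe sets, all probe sets were lower in 13, all were higher in 1 and the signs were mixed in 23. The brightest probe sets were lower in 38 of 48 cases (79.2%), where those of all genes were in 55.0%. The other 66 probe sets of the list were lower in 37 cases (56.1%), where other probe sets of all named genes were in 46.0%. Over the 114 together 75 were lower (65.8%), where 50.7% of all probe sets with 1 gene name were. By the mean of each gene's probe sets 32 of 48 were lower (66.7%, against 51.7% of all genes), with a median of -0.078.

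Brightness was set beside direction. The 26 genes brighter than the array-wide median were lower in 23 cases (88.5%, against 55.4% of all such genes), with a median of -0.18. The 22 at or below it were lower in 15 (68.2%, against 54.3% of all such genes), with a median of -0.20. The within-group SD had a median of 0.24 in the brighter genes and 0.39 in the dimmer ones, against 0.24 over all genes. Cdc25c varied most, at 1.49, and Nusap1 least, at 0.072. The 51 probe sets of the list that were neither brightest nor above that median were lower in 30 cases (58.8%). Over all named genes 47.5% of such probe sets were lower. The 15 that were above the median but not brightest were lower in 7 (46.7%), near the 44.3% over all named genes.

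**Figure D4:**
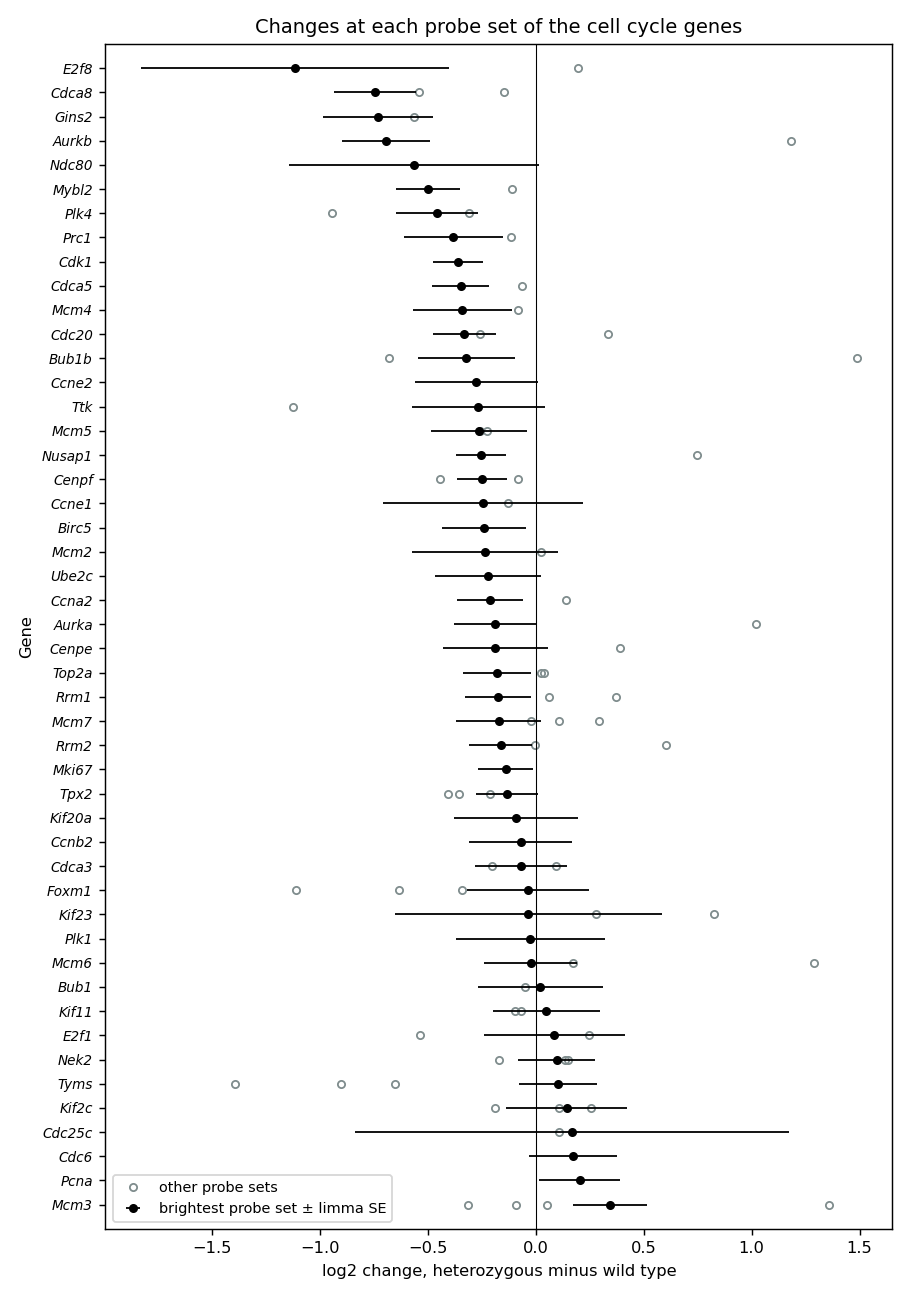
Log2 change, heterozygous minus wild type (horizontal axis), for each of the 48 genes (rows). Filled points are the brightest probe set with its limma standard error, and open points are the gene's other probe sets. The brightest are below 0 in 38 genes, while the others lie on both sides, as for Aurkb at -0.70 and 1.18.

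Genes of division outside the list were set beside it. Of 73 other measured mitotic genes 56 were lower, with a median of -0.20, and 0 passed the limma test over all genes in either direction. At an unadjusted limma p under 0.05, 11 of the 73 were lower and 1 was higher, against 3.77% and 2.67% of all genes. Those named by smallest p without overlap were Stil, Kif4 and Psrc1. Stil, needed to build centrioles, was 6.22, 6.42 and 6.34 in heterozygous replicates 1, 2 and 3, against 7.20, 7.14 and 7.27 in wild-type replicates 1, 2 and 3 (change -0.88, standard error 0.12, limma adjusted p = 0.226). The gap between the Stil groups was wider than the range within either. Kif4, a chromosome-bound motor, gave -0.53, and Psrc1, a microtubule protein, gave -1.10 (limma adjusted p = 0.503 and 0.508).

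Of 45 other measured replication genes 30 were lower (66.7%, against 55.0% of all genes), and 0 passed. Their median was -0.040, near the -0.027 of all genes. Orc2, of the origin recognition complex, gave -0.57, Uhrf1, which guides maintenance of DNA methylation, -0.36, and Dut, a dUTPase, 0.31, all without overlap, though the other Orc2 probe sets gave 0.23 and 0.44 and the other Dut probe set gave -0.45. Of 21 G1 cyclins, kinases and pocket proteins 15 were lower (71.4%), with a median of -0.12, and 0 passed. By the mean of probe sets 9 were lower and 12 higher. Cdk6 gave -0.35, the E2F repressor E2f7 -0.50 and Ccnd2, a D-type cyclin, 0.34, without overlap.

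Inhibitors of division were counted in the same way. Of 16 Cdk inhibitors and quiescence genes 10 were lower (62.5%, against 55.0% of all genes), with a median of -0.048, and 0 passed. Taking the mean of probe sets, 7 were lower and 9 higher. Cdkn1a, p21, was 9.94, 10.14 and 10.16 in heterozygous replicates 1, 2 and 3, against 10.30, 10.89 and 10.91 in wild-type replicates 1, 2 and 3 (change -0.62, standard error 0.20, limma adjusted p = 0.681). Cdkn2b, p15, gave -0.61, and Lin37, of the MuvB complex, -0.39, both without overlap. Of 15 other subunits of the anaphase-promoting complex 9 were lower (60%, near the 55.0% of all genes). Their median was -0.028, against -0.027 over all genes, and by the mean of probe sets 7 were lower. None of these 15 passed, and Anapc1, Anapc11 and Cdc23 were lower without overlap, at -0.29, -0.22 and -0.13, each with another probe set above 0.

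Plk4 and Stil also serve the ciliated cells, which multiply centrioles without dividing, and Stil is on both lists. Of 17 measured markers of ciliated cells and centriole amplification 14 were lower, with a median of -0.16. Deup1, of the deuterosome on which these cells make centrioles, was 8.60, 8.81 and 9.06 in heterozygous replicates 1, 2 and 3, against 10.03, 9.57 and 9.65 in wild-type replicates 1, 2 and 3 (change -0.93, standard error 0.19, limma adjusted p = 0.503). Ccno, a cyclin of the same programme, gave -0.87 without overlap, and Foxj1, the ciliogenesis regulator, gave -0.31. The other direction was seen in 3 of the 17, the highest being Cdc20b at 0.80, which was dim and overlapped. The summed intensity of the 17 was 24863 to 29434 in heterozygous and 30013 to 31463 in wild-type arrays, so these sums did not overlap. The list scores did overlap. They were 0.044, -0.22 and -0.0046 in heterozygous replicates 1, 2 and 3, against 0.038, 0.17 and 0.047 in wild-type replicates 1, 2 and 3.

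Markers of other cells were counted too. Of 18 embryo and oocyte markers 15 were dimmer than the array-wide median in both genotypes, and the summed intensity was 1316 to 1614 in heterozygous and 1191 to 1683 in wild-type arrays. Of the 18, 11 were lower and 7 higher, with changes from -0.96 to 1.83. Pou5f1 was dim, at 4.43 in heterozygous and 5.15 in wild-type samples on average. It was the 1 marker of the 18 lower without overlap, where 6.77% of all genes were. Of 12 granulosa and luteal markers 8 were likewise dim, with sums of 1991 to 2120 in heterozygous and 1706 to 2119 in wild-type arrays.

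Smooth muscle markers were higher in 11 of 12 cases, with overlapping sums of 47078 to 63374 in heterozygous and 41522 to 50277 in wild-type arrays. Endothelial markers were higher in 9 of 10, with sums of 5551 to 6285 in heterozygous and 4554 to 4874 in wild-type arrays. Leukocyte markers were higher in 10 of 15, with sums of 14114 to 16654 in heterozygous and 11002 to 13479 in wild-type arrays. Stromal markers were higher in 8 of 10, with sums of 53118 to 63606 in heterozygous and 50401 to 59404 in wild-type arrays. Fat cell markers were higher in 6 of 8, with a median log2 change of 0.91, the highest of the marker lists. Car3, Fabp4 and Adipoq were higher by 2.22, 1.48 and 2.08 on the log2 scale without overlap (limma adjusted p = 0.454, 0.503 and 0.517). Only 4 of the 8 were above the array-wide median in either genotype, and Adipoq was not. The other Car3 probe sets gave 0.63, 0.55 and 0.95, and the other Fabp4 probe sets gave -0.08, 0.20 and 2.37. The fat cell list scores were 0.056, 1.13 and 0.29 in heterozygous replicates 1, 2 and 3, against -0.030, -1.06 and -0.20 in wild-type replicates 1, 2 and 3, without overlap. The summed fat cell intensities overlapped, at 1906 to 3055 in heterozygous and 1915 to 2034 in wild-type arrays. Secretory epithelial markers were higher in 7 of 11, at 70802 to 81126 in heterozygous and 66334 to 84448 in wild-type arrays. No marker was at the floor of 1 in all arrays. The part of any of these cell types in the cell cycle values was not tested.

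**Figure D5:**
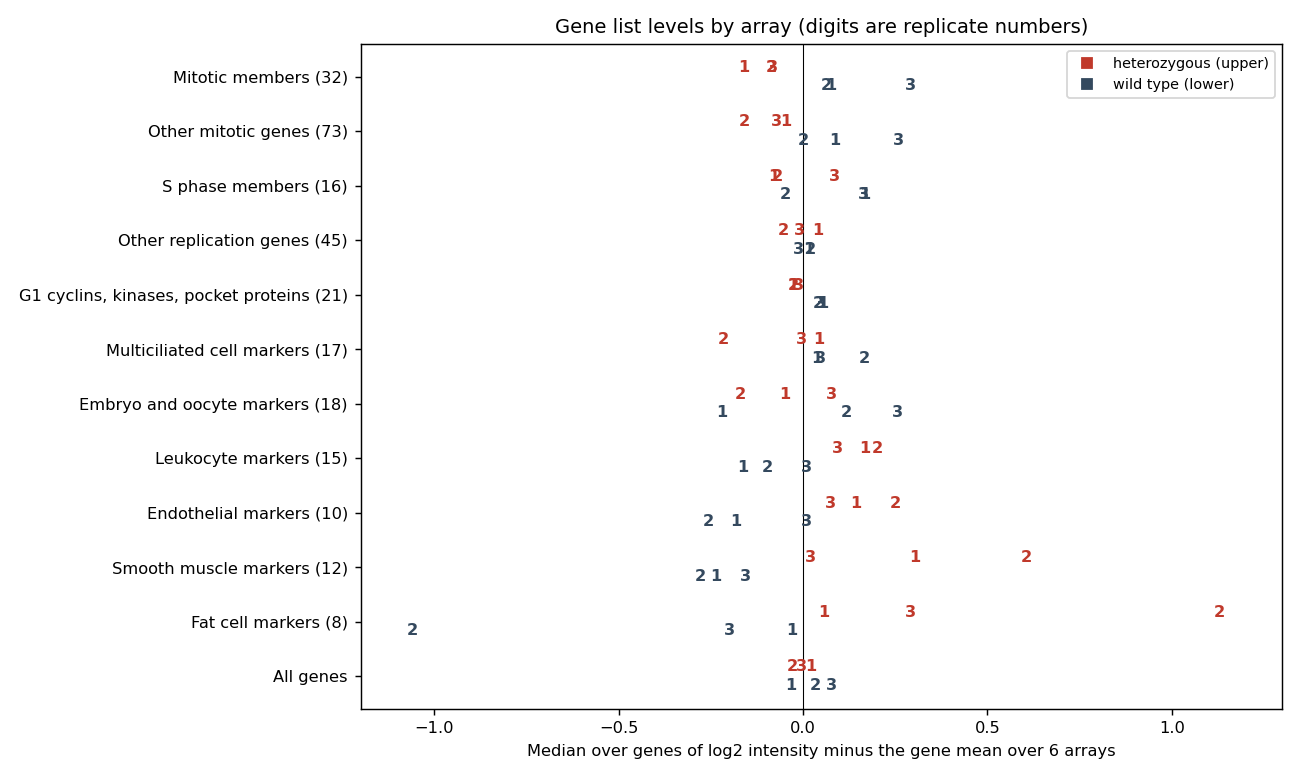
Median over the genes of each list of the log2 level minus the gene's mean over 6 arrays (horizontal axis), for each array. Digits are replicate numbers, heterozygous in red above wild type in dark. Heterozygous arrays lie below wild-type ones in both mitotic lists and the G1 list, and above them in the smooth muscle, endothelial, leukocyte and fat cell lists.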

How the data were processed

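RNA from 3 heterozygous and 3 wild-type oviduct samples was labelled with biotin and hybridised to 1-colour arrays, per the labels. For each array the authors deposited a linear intensity per probe set, and the summarising program is not stated in the labels. With 2% of probe sets removed at each end the mean of every array was 500.002, so the deposited values were already scaled. Detection calls were not used, and the number of arrays limits precision.

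After removal of 64 control probe sets, 45037 remained. Intensities under 1 were set to 1, log2 transformed and quantile normalized, since array medians differed by 0.147. The platform annotation gave 34945 probe sets with 1 symbol, 932 with several and 9160 unnamed here. Each of 18193 genes took its probe set of highest mean. Differences were fitted with limma 3.58.1 in R 4.3.3, two-sided, adjusted over all genes or all 45037 probe sets, threshold 0.05. Single values were also compared by exact permutation over 20 assignments. Scripts were tested on simulated data. Promoter sequences are from RefSeq.

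The listed genes, gene lists, motifs and tests were chosen with earlier results of these data known. Values per array are given for listed genes without overlap, the brightest of each role, and Mki67, Top2a, Pcna and Cdk1. Up to 3 genes of smallest p without overlap are named from each other cell cycle list. Cell type lists are given as counts and sums. Incenp, Ovgp1, Pou5f1, Foxj1, Deup1, Ccno, Cdc20b, Car3, Fabp4 and Adipoq were named after their values were seen, as were the counts by probe set rank and by brightness. Also tried were the scaling as deposited, a brightness filter, limma's trend and robust options, weights per array, replicate number as block, the mean of probe sets, exclusion of cross-hybridizing probe sets, log2 of the intensity plus 16, the Actb ratio as covariate or class, and each array left out.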

Additional observations from a re-analysis of the deposited data

How the results depend on the processing

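Across 16 alternatives 0 listed genes passed the threshold, the smallest adjusted p being 0.201 for Aurkb with array weights. The count of all genes past the threshold was 3. The limma count was 1 with the brightness filter, 1 with trend and robust options and 7 with weights per array, and it was 3 with the deposited scaling and with the mean of probe sets. Limma gave 0 with replicate number as block (976 at an unadjusted p under 0.05), after removal of cross-hybridizing probe sets (1129), with the Actb ratio as covariate (1114) or class (1171) and with any array left out (0 to 0), where unadjusted counts were 848 to 1905. Under the brightness filter 26 listed genes were tested and 23 were lower. The number lower was 33 to 39 when 1 array was left out. The median change of the list was then -0.27 to -0.11, that of mitotic genes -0.29 to -0.14 and that of S phase genes -0.22 to -0.041, the last without heterozygous replicate 1. With the mean of probe sets the mitotic median was -0.078, and 6 genes were lower without overlap. That count, on the deposited scaling and without wild-type replicate 3 too, was added after the data were seen. For the median of S phase genes 1 array or setting moved the value by over 1.5 times: it was -0.068 without wild-type replicate 3, -0.055 after removal of cross-hybridizing probe sets, -0.075 with the Actb covariate and -0.087 with the mean of probe sets.

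The direction of some listed genes turned. With array weights E2f1 was -0.15 and Nek2 -0.074. With the mean of probe sets 14 listed genes turned, among them Aurkb at 0.24, Nusap1 0.25, Mcm7 0.051, Rrm1 0.085 and E2f1 -0.067. Mcm3 was -0.092 once cross-hybridizing probe sets were removed. With the Actb covariate Mcm7 was 0.038, E2f1 -0.080 and Foxm1 0.10, and with the Actb class Foxm1 was 0.014. With 1 array left out E2f1 ranged from -0.19 to 0.27, Foxm1 from -0.30 to 0.13 and Nek2 from -0.021 to 0.22. The cause was not tested.

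The replicate numbers in the titles were not treated as pairs: the deviations of same-numbered samples from their group means correlated at -0.098, -0.028 and -0.078 across genes. With replicate number as block 0 of the listed genes passed, the smallest adjusted p being 0.823, and 0 genes passed over all. The block changed no call among the listed genes.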
